A study of Drosophila melanogaster with 12 samples.

Results

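Independent long noncoding RNA (lncRNA) genes are those that stand apart from protein-coding genes, and RNA Polymerase II (Pol II) on them was measured here. They were taken from the Ensembl BDGP6 annotation of Drosophila melanogaster as genes with a symbol beginning lncRNA:, at least 200 bp long, that overlap no protein-coding gene on either strand and lie more than 1500 bp from every protein-coding transcription start. The dosage compensation RNAs roX1 and roX2 were left out. Of 1945 genes with such a symbol, 569 overlapped a protein-coding gene and 434 more lay close to a protein-coding start, which left 940 independent lncRNA genes of 18277 annotated genes. They ranged from 200 to 158841 bp, with a median of 662.5 bp, and 59 of them overlapped another gene of the same group.

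The assay was ChIP-seq for the form of Pol II phosphorylated on serine 5 (S5) of its C-terminal domain, in Kc167 cells, an established line of embryonic hemocyte-like cells. Mock cells went through nucleofection with neither dsRNA nor siRNA, AGO2 KD cells received 100 pmol of siRNA against AGO2, and LaminB KD cells received 2 µg of dsRNA against LaminB, a protein of the nuclear lamina. Cells were collected after 3 days, and each of the 3 groups had 2 immunoprecipitated libraries, called against a paired input. The study asked whether depletion of AGO2 alters Pol II on chromatin and used LaminB as a comparison. The mock cells carried no control dsRNA or siRNA, so the effect of a knockdown and that of introducing double-stranded RNA cannot be told apart here.

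Serine 5 of Pol II is phosphorylated as transcription starts, and this form gathers over the first part of active genes. Many lncRNAs are made by the same polymerase, capped and polyadenylated, but hold no long open reading frame, and in Drosophila many of them are made chiefly in testis or in the developing nervous system. A subset are the primary transcripts of microRNAs (miRNAs). The hairpin is cut out of the transcript in the nucleus, and the mature miRNA recognises its targets largely through its seed, bases 2 to 8.

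The most recognisable of the independent lncRNA genes were miRNA hosts, so the mature sequences of the arm usually taken as the functional one are shown first, read from the dm6 genome at the RefSeq miRNA coordinates, with the seed in capitals. The first 5 come from hosts with a Pol II S5 peak, at chr3L:642259-642281, chr3L:10365281-10365302, chr3L:10319846-10319867, chr3R:10100952-10100975 and chr3R:10100080-10100102, all on the plus strand.
mir-ban: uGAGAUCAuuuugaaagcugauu
mir-276a: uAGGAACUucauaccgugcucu
mir-276b: uAGGAACUuaauaccgugcucu
mir-34: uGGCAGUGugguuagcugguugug
mir-277: uAAAUGCAcuaucugguacgaca

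The next 4 come from hosts without a peak in any library, at chr2L:20487496-20487517, chr2L:17566426-17566448 and chr3L:19565140-19565162 on the plus strand and chr3R:6809553-6809574 on the minus strand.
mir-1: uGGAAUGUaaagaaguauggag
mir-124: uAAGGCACgcggugaaugccaag
mir-9a: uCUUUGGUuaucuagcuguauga
mir-10: aCCCUGUAgauccgaauuuguu

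Among these 9, mir-276a and mir-276b share the seed AGGAACU and the others each have a seed of their own. In background terms, bantam (mir-ban) drives growth and blocks apoptosis, mir-276a acts in the nervous system, mir-34 in ageing and mir-277 in branched-chain amino acid metabolism. mir-1 is the muscle miRNA, mir-124 the neuronal one, mir-9a limits sensory organ precursors and mir-10 lies in the Hox complex.

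The annotated starts of 6 of the leading genes are shown next, since the peaks described further on fall over them. Each run holds the 100 bases before and the 50 bases from the start in the direction of transcription, all on the plus strand. Capitals mark matches on either strand to TATAAA (the TATA box), to GAGAG (the GAGA factor site, which reads CTCTC on the opposite strand) and to TATCGATA (the DRE core), and on the same strand to TCAGT (part of the initiator). None of these 4 motifs contains another, although copies of GAGAG can overlap each other. The windows lie at chr3L:19861358-19861507, chr3L:628335-628484, chr3L:10363919-10364068, chr3R:10093661-10093810, chr3R:10083281-10083430 and chr3R:21296521-21296670.
lncRNA:CR45433: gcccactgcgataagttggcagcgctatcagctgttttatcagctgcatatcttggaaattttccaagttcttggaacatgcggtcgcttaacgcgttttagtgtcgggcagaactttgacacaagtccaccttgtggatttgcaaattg
lncRNA:CR43334: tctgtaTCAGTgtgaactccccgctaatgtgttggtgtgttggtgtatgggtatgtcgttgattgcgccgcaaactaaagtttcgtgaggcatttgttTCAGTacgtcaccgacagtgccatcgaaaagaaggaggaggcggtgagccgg
lncRNA:CR46006: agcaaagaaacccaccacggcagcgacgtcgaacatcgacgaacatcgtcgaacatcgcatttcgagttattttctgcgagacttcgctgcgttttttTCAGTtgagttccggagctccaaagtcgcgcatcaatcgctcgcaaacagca
lncRNA:CR43459: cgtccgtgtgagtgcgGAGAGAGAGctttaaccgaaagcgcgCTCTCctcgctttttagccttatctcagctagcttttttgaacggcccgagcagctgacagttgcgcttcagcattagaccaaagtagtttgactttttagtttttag
lncRNA:CR45054: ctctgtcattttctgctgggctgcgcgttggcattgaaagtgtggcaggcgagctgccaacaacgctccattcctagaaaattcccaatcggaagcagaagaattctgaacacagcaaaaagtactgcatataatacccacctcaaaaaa
lncRNA:Hsromega: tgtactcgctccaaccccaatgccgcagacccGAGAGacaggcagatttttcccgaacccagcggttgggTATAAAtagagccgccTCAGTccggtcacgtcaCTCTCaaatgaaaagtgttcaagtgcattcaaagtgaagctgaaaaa

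In lncRNA:CR43334 and lncRNA:CR46006 a TCAGT began 2 bases before the annotated start, the place where the initiator element of fly promoters is known to sit. In lncRNA:Hsromega a TATAAA began 30 bases before the later of its annotated starts. The shares over the whole group were taken at the first annotated start of each gene, so they do not count the later starts printed for lncRNA:CR46006 and lncRNA:Hsromega. GAGAG was in 17 of 60 windows of genes with a peak (28.3%) and in 145 of 880 without one (16.5%), beside 18.0% of protein-coding windows and 17.8% of those of all genes. TATAAA was in 4 of 60 (6.67%) and 187 of 880 (21.2%), beside 23.9% of protein-coding windows. TCAGT was in 9 of 60 and 165 of 880 (18.8%), beside 27.8%. TATCGATA was in 0 and 2 windows, beside 7.63%. These are letter matches in windows that rest on the annotated start, and no test was made of the shares.

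The libraries differed in how much was called. They held 5108 to 8541 peaks over 4.19 to 14.6 Mb, and both ends of these ranges were LaminB KD libraries, replicate 1 at the top and replicate 2 at the bottom. The peak lists hold no read counts, so the depth is unknown. Among 9 hemocyte markers, 5 had peaks in both mock libraries (srp, Pxn, Col4a1, vkg and Hml), while NimC1, eater, He and Sr-CI had none in any library. Of the neuronal markers elav had a peak and Syt1 and nSyb did not, and of the muscle markers Mef2 did and Mhc did not. The germline gene vas was covered over 9.85% to 24.9% in all 6 libraries, above the hemocyte genes Col4a1 and vkg in each. These are shares of each gene's whole span, where a peak of a gene nested inside would also count. They do not rank how strongly the genes were occupied. The germline gene aub had a peak in mock replicate 2 and the glial gene repo in LaminB KD replicate 1. The part of such genes in the results was not tested. Knockdown acts on the RNA, so occupancy of the AGO2 gene is no check of it. The AGO2 gene was covered over 6.67% to 9.97% of its length in 5 libraries and over 67.6% in LaminB KD replicate 1.

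Most independent lncRNA genes carried no Pol II S5 peak. A peak overlapped 32 and 37 of the 940 genes in mock, 26 and 32 with AGO2 KD and 59 and 24 with LaminB KD. Altogether, 60 genes (6.38%) had a peak in at least 1 library, 21 (2.23%) had one in all 6, and 880 (93.6%) had none. The share with a peak in any library was 19.8% for the other lncRNA genes and 56.6% for protein-coding genes. In bulk chromatin, a peak borne by few cells and weak occupancy in all of them cannot be told apart, and a gene with no peak in these lists may still be transcribed below the calling threshold.

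The order of the 3 gene sets was the same in every library. The share with a peak was 2.55% to 6.28% for independent lncRNA genes, 9.87% to 19.0% for other lncRNA genes and 39.2% to 56.2% for protein-coding genes. The ranges do not overlap, and each set was highest in LaminB KD replicate 1 and lowest in LaminB KD replicate 2.

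**Figure D1:**
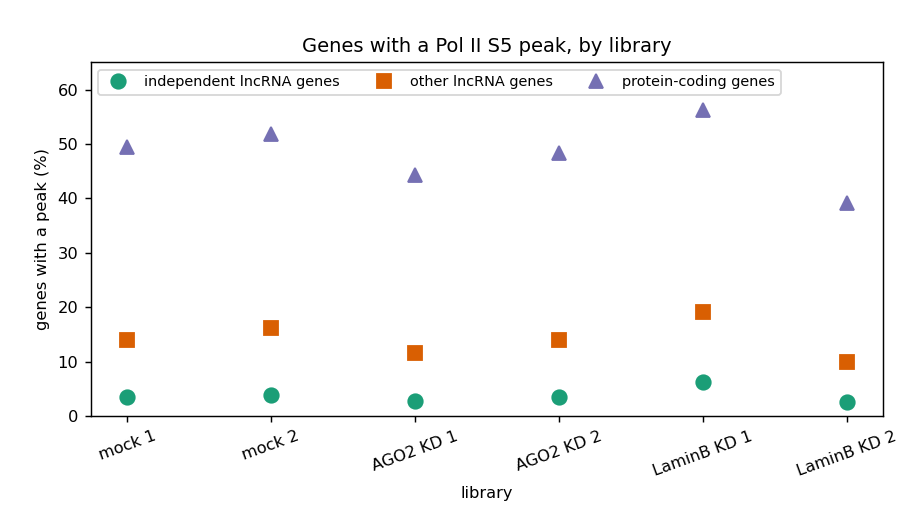
Percent of genes with at least 1 bp under a Pol II S5 peak (vertical axis) in each of the 6 libraries (horizontal axis), for 940 independent lncRNA genes, 1003 other lncRNA genes and 13961 protein-coding genes. Independent lncRNA genes lie lowest in each library, between 2.55% and 6.28%.

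Repeatability was uneven between libraries. Of the 60 genes with a peak, 23 had it in a single library, and 22 of these 23 were in LaminB KD replicate 1, the remaining one being lncRNA:CR45543 in mock replicate 2. Without LaminB KD replicate 1, 38 genes had a peak. Another 8 genes had a peak in 5 libraries, 1 in 4, 3 in 3 and 4 in 2.

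**Figure D2:**
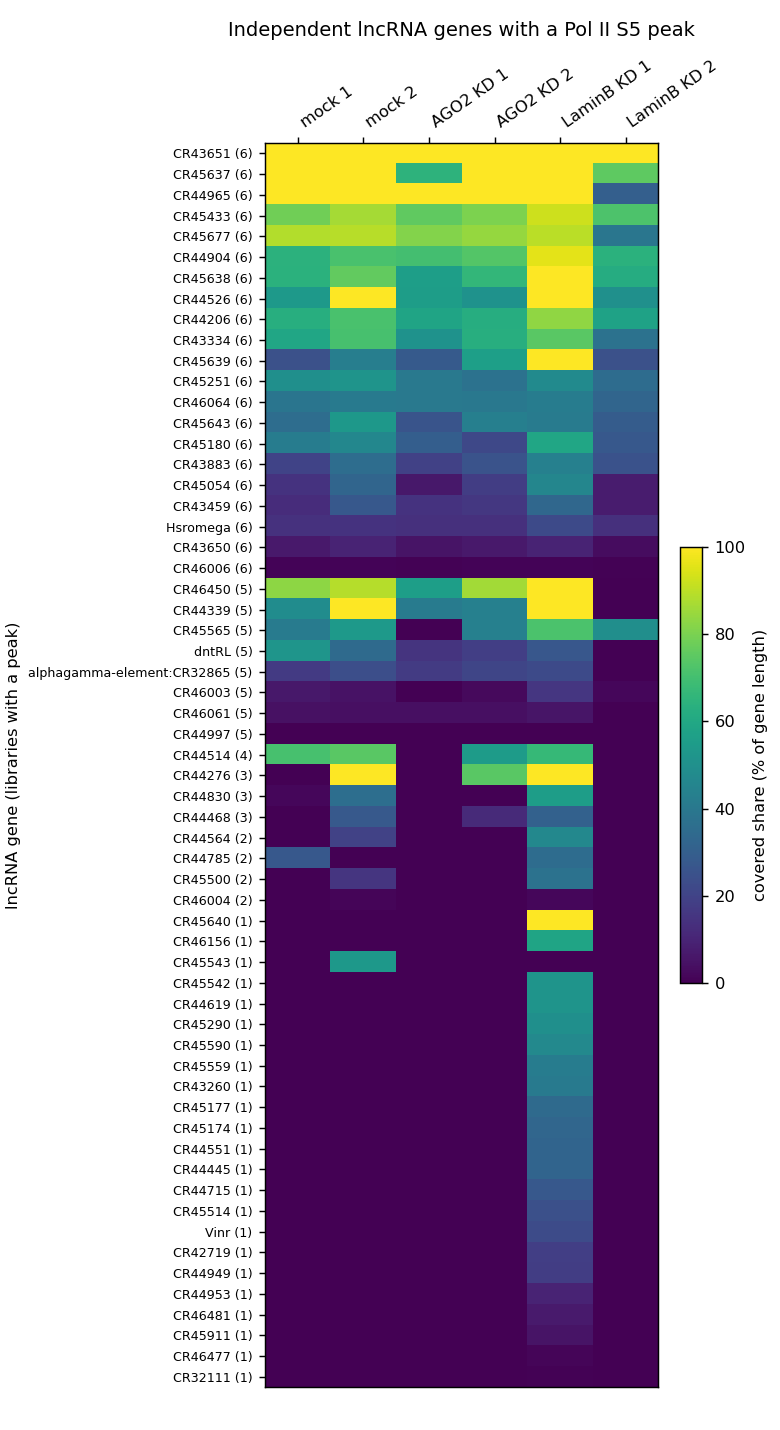
Covered share, the percent of a gene's length under peaks (colour, 0 to 100), for the 60 independent lncRNA genes with a peak (rows, the number of libraries with a peak in parentheses) in 6 libraries (columns). The upper 21 rows have a peak in each library, and the lower part of the map is filled almost entirely by LaminB KD replicate 1.

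The longest genes had peaks most often. Of independent lncRNA genes shorter than 500 bp, 5.04% had a peak in any library, and of those of 5000 bp or more, 13 of 35 (37.1%) did. The same classes of protein-coding genes gave 12.4% and 72.9%. Genes with a peak had a median length of 1031.5 bp against 654.5 bp for those without, and a longer gene offers more bases for a peak to touch.

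**Figure D3:**
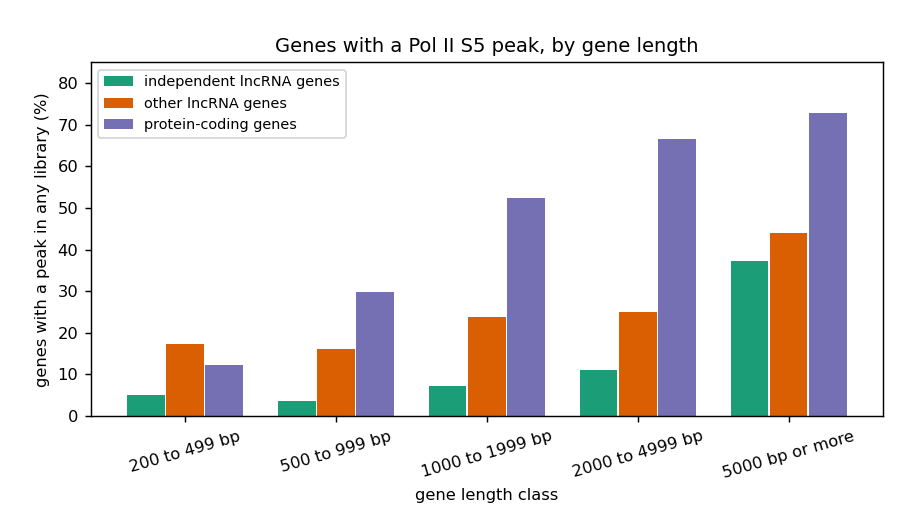
Percent of genes with a peak in any library (bars, from 0) by gene length class, for independent lncRNA genes, other lncRNA genes and protein-coding genes. In each class the bar of the independent lncRNA genes is the lowest, from 3.66% in the second class, which starts at 500 bp, to 37.1% at 5000 bp or more.

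By chromosome, 12 of 132 genes on 2R, 18 of 231 on 3L, 16 of 194 on 3R and 10 of 107 on X had a peak, shares of 7.79% to 9.35%. On 2L the share was 4 of 270 (1.48%), while 51.2% of the protein-coding genes of 2L had one, close to the 55.8% of 3L. None of the 5 genes on chromosome 4 and the 1 on Y had a peak.

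Genes with a peak tended to have an occupied neighbour. The nearest protein-coding gene had peaks in both mock libraries for 43 of the 60 genes with a peak (71.7%), for 17 of the 21 with a peak in all 6 libraries (81.0%), and for 259 of the 880 without (29.4%). Of all 13961 protein-coding genes, 6854 had peaks in both mock libraries, a share that lies between those of the genes with and without a peak. For 48 of the 60, no peak touched a protein-coding gene or came within 1500 bp of a protein-coding start, for 8 some did, and for 4 each one did. lncRNA:CR44965 on X was among the last. It was wholly covered in 5 libraries and 30.1% covered in LaminB KD replicate 2, by peaks that also touched CG5273.

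Peaks on these genes were of ordinary strength. Their median fold enrichment over input, as the peak caller gave it, was 3.79 and 3.74 in the mock libraries beside 3.58 and 3.39 for all peaks, and between 2.93 and 3.98 in the knockdown libraries beside 2.81 to 4.07. They made up 0.633% to 0.808% of the peaks of a library. The first annotated start of a gene was taken with 250 bp on each side, and a peak had to touch at least 1 bp of this window. In a gene of 250 bp or less any peak does so. Further on, a start counts as under a peak only at its own base. The window was touched by a peak in 73.1% to 83.8% of the independent lncRNA genes with a peak. These shares ran from 19 of 26 genes in AGO2 KD replicate 1 to 31 of 37 in mock replicate 2. Such protein-coding genes gave 84.6% to 89.4%. The 2 ranges do not overlap, but the lncRNA counts are small, later annotated starts were not counted, and no test was made.

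Holding a miRNA gene went with a peak. A miRNA gene on the same strand lay inside 18 of the 940 genes, and 9 of these hosts (50.0%) had a peak, 7 of them in all 6 libraries. Of the other 922 genes, 51 (5.53%) had a peak and 14 had one in all 6. Hosts were long, with a median of 9595.5 bp against 655.5 bp. Among genes of 5000 bp or more, 7 of 13 hosts (53.8%) and 6 of 22 other genes (27.3%) had a peak, and 6 and 1 had one in all 6 libraries. No test was made of these shares.

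lncRNA:CR43334 (FBgn0286827, chr3L:628435-643900) is the host of bantam. Peaks covered 59.1% and 70.8% of it in mock, 51.0% and 62.8% with AGO2 KD, and 74.4% and 37.6% with LaminB KD. The mock and AGO2 KD libraries overlapped, and the LaminB KD libraries lay on either side of both. On average 9168 bp were under peaks, in blocks over its first start, further inside (from 3480 to 7433 bp in mock replicate 2) and near its end (from 10973 to 15058 bp in mock replicate 1). That last block lay over an annotated start at 11279 bp, in each of the 6 libraries. The bantam hairpin, 2494 bp past that start, was wholly under a peak in 5 libraries and lay 55 bp from the nearest peak in LaminB KD replicate 2.

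lncRNA:CR46006 (FBgn0267668, chr3L:10323501-10367450) is the host of mir-276a. Between 0.542% and 0.985% of its 43950 bp was under a peak, and its peak had the second highest mean fold of the group in mock. That fold was 6.17 and 6.36 in mock, 6.16 and 6.12 with AGO2 KD, and 7.46 and 4.02 with LaminB KD. The 3 upstream annotated starts had no peak in any library. The single peak, from 40255 to 40655 bp past the first start in mock replicate 1, covered the annotated start at 40518 bp in all 6 libraries, the start whose window is printed above. The mir-276a hairpin lay 1209 bp past this start and 1062 to 1093 bp from the nearest peak. Its neighbour lncRNA:CR46004, host of mir-276b, had a small peak in mock replicate 2 (1.29% of its length) and LaminB KD replicate 1 (1.85%) and none in the other 4 libraries.

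lncRNA:CR43459 (FBgn0263413, chr3R:10093761-10101356) carries mir-277 and mir-34. It was covered over 12.6% and 27.5% in mock, 14.5% and 16.3% with AGO2 KD and 33.4% and 7.73% with LaminB KD, and the 3 groups overlapped. Each library had a peak over its start and another beside mir-34, which lies 7175 bp past the start. In mock replicate 1 that peak ran from 6633 to 7080 bp. The mir-34 hairpin was at least partly under a peak in 4 libraries, and mir-277 in 2, mock replicate 2 and LaminB KD replicate 1. Upstream lies lncRNA:CR45054 (FBgn0266414, chr3R:10083381-10090525), with no miRNA gene annotated in it and a peak over its start in all 6 libraries. Its covered share was 14.5% and 32.5% in mock, 6.35% and 18.3% with AGO2 KD, and 45.7% and 7.59% with LaminB KD.

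Of the hosts on 2R, lncRNA:CR43651 (FBgn0263660) carries mir-14, known for restraining cell death and fat storage, and was wholly under a peak in all 6 libraries. lncRNA:CR44206 (FBgn0265104), the host of mir-184, a miRNA needed in the female germline, had the most bases under peaks of any of the group, 10196 bp on average. lncRNA:CR43650 (FBgn0263659) carries mir-8, the fly member of the miR-200 family and a regulator of body growth. Its covered share was low, 3.33% to 10.1%, and its highest fold high, 5.20 and 7.16 in mock, in a peak over the later of its annotated starts, 1594 bp past the first. The mir-8 hairpin lay 330 to 603 bp beyond the nearest peak. Both annotated starts of lncRNA:CR44206 and of lncRNA:CR43650 were under a peak in all 6 libraries.

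The 9 hosts without a peak included those of mir-1, mir-124, mir-9a and mir-10, whose sequences are printed above, with mir-bft, mir-315, mir-993, mir-985 and mir-4973. The mir-124 hairpin was 65093 to 65150 bp and the mir-1 hairpin 23924 to 24023 bp from the nearest peak of any library. lncRNA:CR45911, which carries mir-2c, mir-13a and mir-13b-1, all with the seed AUCACAG on their 3′ arm, had a peak only in LaminB KD replicate 1, over 5.28% of its length.

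lncRNA:Hsromega (FBgn0001234, chr3R:21296127-21317836), the heat shock RNA that nucleates the omega speckles of the nucleus, is also annotated as holding mir-4951. Its covered share was 14.3% and 14.7% in mock, 13.7% and 13.9% with AGO2 KD and 22.4% and 13.9% with LaminB KD. The AGO2 KD libraries lay below both mock libraries by less than 1 percentage point. In mock replicate 1 the peak ran from 209 to 3318 bp past the first annotated start, and the start at 494 bp was under it in all 6 libraries. The first annotated start was under it in LaminB KD replicate 1 alone. In LaminB KD replicate 1 this peak had a fold of 9.92, the highest of any peak on the group in that library.

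**Figure D4:**
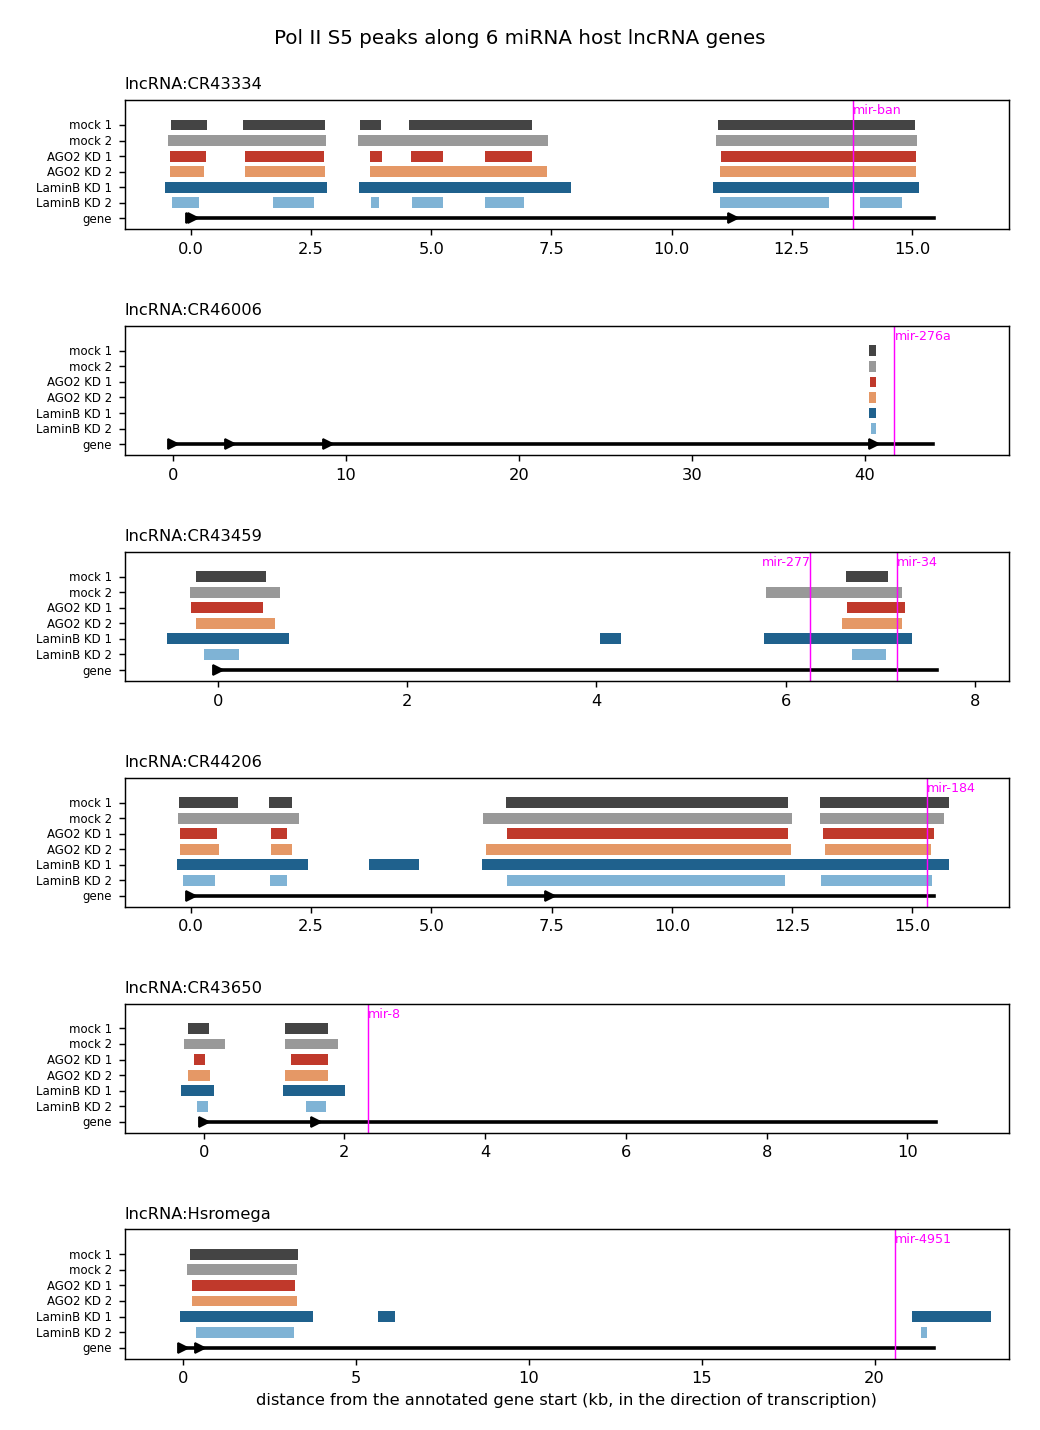
Pol II S5 peaks (coloured bars, 1 line per library) along 6 miRNA host genes, by distance in kb from the annotated gene start in the direction of transcription. Black lines are the genes, arrowheads their annotated starts and magenta lines the miRNA genes, and in lncRNA:CR46006 the peaks of all 6 libraries stand at the start 40518 bp inside the gene.

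Several annotated starts were known for 10 of the 60 genes with a peak. In 5 of these, the miRNA hosts lncRNA:CR44206, lncRNA:CR43650, lncRNA:CR43334, lncRNA:CR46006 and lncRNA:Hsromega, a start later than the first was under a peak in all 6 libraries. Of the 21 genes with a peak in all libraries, 17 had an annotated start under a peak in each of them, and 1, lncRNA:CR45180, had none under a peak in any.

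The highest mean fold in mock belonged to a gene known by its number alone. lncRNA:CR45433 (FBgn0266982, chr3L:19861458-19861869) is a single exon of 412 bp, 533 bp from Papss, the enzyme that makes the sulfate donor of the cell. Its peak had a fold over input of 8.17 and 8.80 in mock, at or above 99.67% and 99.85% of the peaks in those libraries. The fold was 7.75 and 7.45 with AGO2 KD, and 6.27 and 4.58 with LaminB KD. In mock the peak was 494 and 543 bp wide, beside medians of 777 and 855 bp for all peaks. The part of width in the fold was not tested. The fold values are a description, since the gene was chosen for its high fold in mock, and the knockdown values lay below both. Other genes went the other way with AGO2 KD, such as the host of mir-14, lncRNA:CR43651, with a highest fold of 4.33 and 4.14 in mock and 5.39 and 4.66 with AGO2 KD. The median fold of all peaks was 3.58 and 3.39 in mock and 4.07 and 3.49 with AGO2 KD, so the fold scale itself differed between libraries. The peaks on lncRNA:CR45433 ran from 127 to 187 bp before its start to 296 to 379 bp after it, and covered 72.1% to 92.2% of the gene.

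On 3R, 5 small genes between 16208192 and 16223854 had peaks, 4 of them in each of the 6 libraries. lncRNA:CR45638 and lncRNA:CR45637 overlap on opposite strands and shared 1 peak, with a fold of 4.37 and 6.70 in mock, and ChIP-seq does not tell the strands apart. lncRNA:CR45637 was wholly covered in 4 libraries and over 64.8% in AGO2 KD replicate 1 and 75.3% in LaminB KD replicate 2.

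Other genes of at least 1000 bp with high coverage were lncRNA:CR46450 and lncRNA:CR46064. lncRNA:CR46450 (FBgn0287461, chr2L:23176238-23177906) was covered over 83.1% and 88.7% in mock, 56.2% and 86.2% with AGO2 KD, and 100% and 0% with LaminB KD. The other genes wholly covered in LaminB KD replicate 1 and not at all in replicate 2 were lncRNA:CR44276, lncRNA:CR45640 and lncRNA:CR44339. lncRNA:CR46064 (FBgn0267733), in contrast, varied little, 39.0% and 40.9% in mock, 40.3% and 39.97% with AGO2 KD and 41.9% and 32.7% with LaminB KD.

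Annotated transposons lay in 32 of the 940 genes, 7 of which had a peak, and made up at least 50% of the length of 6, of which 2 had a peak. lncRNA:alphagamma-element:CR32865 (FBgn0052865, chr3R:12475336-12478267), from the heat shock locus beside Hsp70Ba and 63.3% transposon sequence, was covered over 17.1% and 24.1% in mock, 17.3% and 20.7% with AGO2 KD, and 22.3% and 0% with LaminB KD. The flamenco piRNA cluster, lncRNA:flam, the longest gene of the group at 158841 bp and 69.1% transposon sequence, had no peak in any library. Reads that map to several places had been removed, so such sequence was only partly measured.

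Among other genes with names, lncRNA:cherub, a tumour-associated RNA of neural stem cells, and lncRNA:acal, which acts in dorsal closure, had no peak. None of the 14 genes whose symbols mark them as testis-specific had one.

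Independent lncRNA genes had on average less sequence under peaks with AGO2 KD than in mock, as did the other gene sets. The mean covered share over the 940 genes was 1.73% ± 0.358 (SD, n = 2) in mock and 1.33% ± 0.262 (SD, n = 2) in AGO2 KD, a difference of -0.400 percentage points, from libraries at 1.47% and 1.98% against 1.14% and 1.51%, which overlap. In protein-coding genes the libraries did not overlap, at 20.1% and 24.0% in mock against 14.0% and 19.3% with AGO2 KD, nor did they in other lncRNA genes, at 7.95% and 9.35% against 5.81% and 7.59%. The difference in independent lncRNA genes was -0.15 points without mock replicate 2 and -0.65 points without mock replicate 1. AGO2 KD reached 76.8% of the mock mean in independent lncRNA genes, 77.5% in other lncRNA genes and 75.6% in protein-coding genes. The median difference over the 940 genes was 0 points, as it had to be with no peak in 880 of them. With 2 libraries against 2, an exact permutation test cannot give a two-sided p below 0.333, so that test cannot reach 0.05, and no model was fitted to the covered shares. The libraries may also differ for technical reasons, since nothing in the labels says that replicates came from separate cultures. From read counts, the study reported gain of Pol II S5 with AGO2 depletion at part of the genes with raised nascent transcription. It reported loss at part of those with lowered nascent transcription. Covered share measures the extent of called peaks and not read signal, so it is not set against that result.

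A gene was called lower or higher when both knockdown libraries lay beyond both mock libraries. By this rule 11 of the 940 genes (1.17%) were lower in AGO2 KD and 0 were higher, while over all 16785 genes of at least 200 bp 21.0% were lower and 0.232% higher. The count of 11 was 31 without mock replicate 1 and 23 without AGO2 KD replicate 2, and without mock replicate 2 there were 5 higher. In same-numbered pairs (the replicate block), 21 were lower and 2 higher in both pairs. The share over all genes was not computed for these looser settings, so the 21.0% does not stand beside their counts. A gene can be called lower only if both mock libraries have a peak in it, which held for 31 of the 940. Of these 31, 11 were lower (35.5%), beside 48.4% of the 7272 such genes over the whole annotation, and the median differences were -6.00 and -5.18 points. This filter rests on the mock values themselves, so these shares are a description. AGO2 KD replicate 1 also had fewer peaks than either mock library, 5532 against 6435 and 7162. Both AGO2 KD libraries had less sequence under peaks, 5.57 and 8.01 Mb against 8.27 and 10.5 Mb in mock. Their peaks were narrower, with means of 1007 and 1207 bp against 1286 and 1465 bp. With each library cut to its 5108 best peaks, 10 of the 11 were still lower, and 19.5% of all genes. This cut evens the number of peaks and not their width, and the part of peak width in the calls was not tested.

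The largest gap was at lncRNA:CR44514 (FBgn0265707, chr3L:705330-705723), a single-exon gene near CG13895. It was covered over 71.1% and 74.4% in mock, 0% and 54.8% with AGO2 KD, and 67.0% and 0% with LaminB KD, so both knockdowns lay below mock with wide spread within each. In mock the peaks reached 3155 and 3159 bp past its start and touched CG13895, and in AGO2 KD replicate 2 the peak spanned 136 to 351 bp past the start.

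lncRNA:dntRL (FBgn0267585) followed, with 52.2% and 34.7% in mock, 15.1% and 18.5% with AGO2 KD, and 27.0% and 0% with LaminB KD. Neither knockdown overlapped mock. In mock the peaks reached 526 and 541 bp upstream of its start, and in both AGO2 KD libraries they began about 150 bp inside the gene.

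lncRNA:CR45180 (FBgn0266690, chr3L:25708177-25709251) lies 37197 bp from the nearest protein-coding gene. Its values were 41.9% and 46.3% in mock, 30.0% and 21.8% with AGO2 KD, and 59.1% and 27.4% with LaminB KD. AGO2 KD lay below mock, and LaminB KD lay on both sides of it. These 3 genes had the only gaps of at least 10 percentage points between the nearest libraries.

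The other 8 genes called lower were lncRNA:CR45251, lncRNA:CR44339, lncRNA:CR44206, lncRNA:CR44830, lncRNA:CR46003, lncRNA:CR46006, lncRNA:CR45677 and lncRNA:Hsromega. lncRNA:CR44206 lay at 62.8% and 71.3% in mock and 58.4% and 62.1% with AGO2 KD, a gap of -0.67 points. The smallest gap, -0.057 points, was at lncRNA:CR46006, whose fold was 6.17 and 6.36 in mock and 6.16 and 6.12 with AGO2 KD. lncRNA:CR44830 was the single gene with a peak in both mock libraries, 1.77% and 36.3%, and none in either AGO2 KD library. In mock replicate 1 that share was the edge of a peak of 8029 bp that touched 2 protein-coding genes, CG2765 among them, and ended 27 bp inside lncRNA:CR44830, and 4 of the 5 peaks on it in all libraries touched a protein-coding gene. No gene without a peak in both mock libraries had one in both AGO2 KD libraries.

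**Figure D5:**
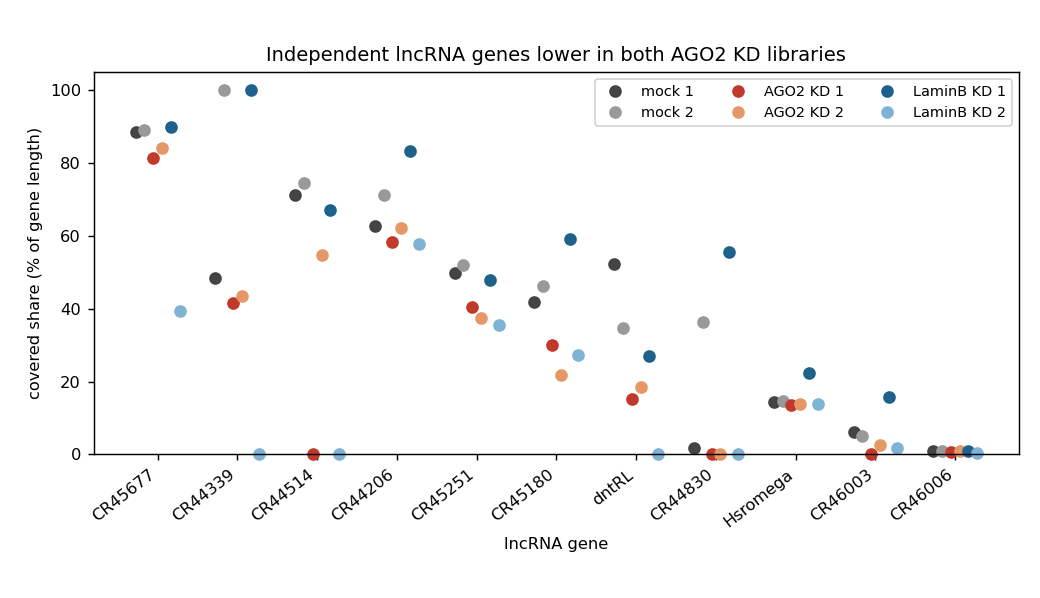
Covered share (percent of gene length) of the 11 independent lncRNA genes in which both AGO2 KD libraries lay below both mock libraries, 1 point per library. lncRNA:CR44514, lncRNA:dntRL and lncRNA:CR45180 have the widest gaps, and the point of LaminB KD replicate 2 lies below both mock points in each of the 11.

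LaminB KD gave no common direction. The mean covered share was 2.99% and 0.901% in its libraries, 1.94% ± 1.48 (SD, n = 2), against 1.73% in mock, a difference of 0.22 points that is smaller than the spread between its replicates. Leaving out LaminB KD replicate 1 turned it to -0.82 points, and leaving out its replicate 2 made it 1.26 points. As a share of the mock mean, LaminB KD reached 112.7% in independent lncRNA genes, 92.6% in the other lncRNA genes and 95.2% in protein-coding genes.

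By the same rule 3 of the 940 genes (0.319%) were lower in LaminB KD and 0 higher, beside 1.23% and 0.143% of all genes. Of the 31 genes with a peak in both mock libraries, the 3 made up 9.68%, beside 2.83% of the 7272 such genes of the whole annotation, again as a description. They were lncRNA:dntRL, lncRNA:CR44514 and lncRNA:CR45251, with gaps of -7.70, -4.06 and -2.01 points. lncRNA:CR45251 (FBgn0266786, chr3L:11349395-11349743), 12243 bp from the nearest protein-coding gene, was covered over 49.9% and 51.9% in mock, 40.4% and 37.5% with AGO2 KD, and 47.9% and 35.5% with LaminB KD. All 3 were among the 11 genes lower in AGO2 KD, but both comparisons share the mock libraries. Without LaminB KD replicate 1 the count lower was 27, and without replicate 2 the count higher was 47, so each rests on which library is kept. The share over all genes was not computed with a library left out, so these counts are no result about lncRNA genes.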

How the data were processed

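Per the labels, reads were trimmed with cutadapt 1.10, aligned to dm6 with Bowtie2 and freed of duplicates with Picard 2.11.0. The study's methods name other versions, and state that reads mapping to several places were removed. Broad peaks were called with MACS2 2.1.1.20160309 for each replicate against its input. The deposited lists give for each peak a score, a fold enrichment over input (a ratio), a −log10 p-value and a −log10 q-value, all computed by the authors with MACS2. Scores were used to rank peaks. No read counts are given, so the study's read-based differential test was not run. Input samples were not used here.

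For each of 6 libraries, the covered share of every gene of the Ensembl annotation (release 115, at least 200 bp) was computed in Python 3.11.15 with numpy 2.4.6, at an overlap of at least 1 bp, after the code was tested on simulated data. No peak ran past the end of its reference chromosome. The genes, lists and rules were chosen with earlier results of these data known. Named genes were the 10 of at least 1000 bp with the highest mean covered share, the 5 with most bases under peaks, the 3 with the largest gaps per knockdown and direction, the 5 with the highest mean fold in mock, genes of known role, and hosts of small RNA genes with a peak. Others, named where a count called for them, were chosen after their values were seen. No small RNA other than miRNAs lay in a gene with a peak. Other peak thresholds, length and distance limits, overlaps and left-out libraries were tried as alternatives.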

Additional observations from a re-analysis of the deposited data

How the results depend on the processing

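Of 96 recomputed values, 67 stayed within the replicate spread or within 1.5 times the original count, 27 moved further and 2 reversed. The difference between AGO2 KD and mock in mean covered share kept its sign in all alternatives, and ranged from -0.65 to -0.15 points with 1 library left out. For LaminB KD the range was -0.82 to 1.26 points, turning negative without mock replicate 1 (-0.03) and without LaminB KD replicate 1 (-0.82). With the upper 50% of peaks by score, AGO2 KD had 1 gene higher and 7 lower, LaminB KD 1 and 1, 13 genes had a peak in all libraries and 35 in any. With genes of at least 1000 bp (252 genes), AGO2 KD had 7 lower, LaminB KD 1, 10 genes had a peak in all libraries and 31 in any, and with a distance of over 3000 bp (721 genes) the lower counts were 7 and 1, since fewer genes were tested. With a gap of at least 10 points, AGO2 KD had 3 genes lower and LaminB KD 0.

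Same-numbered libraries were not stated to share a culture or day. Their deviations correlated at 0.30 over 16785 genes for AGO2 KD and -0.46 for LaminB KD. With the replicate block, AGO2 KD had 2 genes higher and 21 lower, and LaminB KD 0 and 3. Crossing the LaminB KD pairs, chosen after seeing the data, gave 2 higher and 6 lower. Leaving out 1 library gave 0 to 5 genes higher and 12 to 31 lower in AGO2 KD (31 without mock replicate 1, 23 without AGO2 KD replicate 2), 0 to 47 higher and 3 to 27 lower in LaminB KD, 21 to 26 with a peak in all libraries kept, and 38 to 60 with one in any. Apart from the cut to equal peak number, no share over all genes was computed for any alternative. The counts of lower and higher genes in the alternatives are therefore no result about lncRNA genes. The cause of these differences was not tested.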
